A study of Mus musculus with 8 samples.

Results

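Nfat5, the gene knocked out in this study, and 8 genes of the osmotic stress response were followed through the maps of accessible chromatin of mouse macrophages. The 8 genes were Slc5a3, Slc6a6, Slc6a12, Akr1b3, Sgk1, Hspa1b, Hspa4l and Slc38a2. Peaks of the 8 libraries that overlapped by at least 1 base were merged into regions, and a region belonged to a gene when that gene's body was the nearest protein-coding gene body (GRCm38) and lay within 100 kb. By this rule 76 of 87260 regions belonged to the 9 genes, between 2 regions for Hspa4l and 19 for Slc38a2.

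NFAT5, also called TonEBP, is a transcription factor of the Rel family that builds up in the nucleus when the medium around a cell becomes hypertonic, and it binds a short sequence called the tonicity-responsive enhancer (TonE). Its classic targets let a cell take up or make small organic molecules, the osmolytes, that replace salt ions, and others encode chaperones that protect proteins. In macrophages it also acts on genes that answer bacterial products such as lipopolysaccharide (LPS), without a change in tonicity.

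Macrophages were grown for 7 days from bone marrow, in medium that contained 25% of a supernatant of L929 fibroblasts, which secrete the macrophage growth factor M-CSF. The 4 groups were Nfat5 KO macrophages stimulated with E. coli LPS at 0.3 ng/ml for 2 h, unstimulated Nfat5 KO macrophages, WT macrophages with the same LPS stimulus, and unstimulated WT macrophages, with 2 libraries in each. Accessible chromatin was read by ATAC-seq, which uses a transposase to tag DNA that is not packed away. The labels name no exposure to hypertonic medium for any group. The strain, sex and age of the mice, the cells in which Nfat5 was deleted and which part of the gene was deleted are not stated in the labels.

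What was measured is where peaks were called, library by library, and how wide they were. Where a library had 2 or more peaks in a region, their bases were summed as the width, without the gap between them. The lists held 54911 and 54027 peaks in KO with LPS, 56346 and 59811 in untreated KO, 57691 and 55506 in WT with LPS, and 60117 and 59218 in untreated WT. Peaks covered between 26.2 and 28.0 Mb in the 4 LPS libraries and between 29.6 and 31.2 Mb in the 4 untreated libraries. Sequencing depth is unknown, so the absence of a call does not show that chromatin was closed. All 7 macrophage marker genes looked up (Csf1r, Adgre1, Spi1, Cd68, Itgam, Mertk and Fcgr1) had a region called in all 8 libraries. Of 18 markers of T cells, B cells, neutrophils, erythroid cells, mast cells or basophils and fibroblasts, 10 had any region and 5 had one called in all 8. Over all 21887 protein-coding genes, 17182 had a region, and how many had one called in all 8 was not counted. No region belonged to Cd3e, Cd3g, Cd79a, Pax5, Elane, Hba-a1, Gata1 or Mcpt8. The summed cover of these 18 markers was 3461 to 5109 bases in KO and 4241 to 5595 bases in WT, and 3461 to 4449 bases with LPS and 4670 to 5595 bases without. Their part in the results below was not tested.

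Promoter sequence around annotated starts shows what DNA lies under, or beside, the peaks on which the results turn. RefSeq windows on GRCm38.p6, from 250 bases before a start to 50 bases after it, were found for 7 of the 9 genes and not for Slc6a6 and Akr1b3. The betaine transporter gene Slc6a12 has 5 such windows, of which the most upstream, on the plus strand at chr6:121342324-121342623, held the only TonE match among the 16 windows of the 7 genes. In its line the capitals mark, from left to right, a kappa-B match on the minus strand, the TonE match and an AP-1 match (TGANTCA).
Slc6a12 upstream start: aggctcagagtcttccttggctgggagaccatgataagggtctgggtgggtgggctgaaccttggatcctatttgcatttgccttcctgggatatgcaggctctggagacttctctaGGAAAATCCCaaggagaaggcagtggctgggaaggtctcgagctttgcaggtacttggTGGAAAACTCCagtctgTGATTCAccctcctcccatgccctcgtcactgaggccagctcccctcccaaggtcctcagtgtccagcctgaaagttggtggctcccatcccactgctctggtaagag
The most downstream Slc6a12 window, plus strand at chr6:121343138-121343437, lies over a region that was called in every WT library and in no KO library, and the capitals mark the bases of that region.
Slc6a12 downstream start: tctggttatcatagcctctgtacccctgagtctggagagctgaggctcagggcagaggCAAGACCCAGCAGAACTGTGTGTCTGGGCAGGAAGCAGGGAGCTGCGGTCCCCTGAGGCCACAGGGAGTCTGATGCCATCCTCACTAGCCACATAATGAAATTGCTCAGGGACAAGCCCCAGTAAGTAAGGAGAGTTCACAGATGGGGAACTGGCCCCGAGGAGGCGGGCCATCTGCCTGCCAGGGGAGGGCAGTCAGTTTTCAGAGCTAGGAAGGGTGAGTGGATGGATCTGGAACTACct
The windows of Slc5a3 (plus strand, chr16:92058072-92058371), Hspa1b (minus strand, chr17:34959189-34959488) and Nfat5 (plus strand, chr8:107293220-107293519) lie wholly inside called regions and are given because calls or widths there differed between libraries. The capitals in the Hspa1b line mark a heat shock element (GAANNTTC), and the other lines held no match to any of the 5 motifs searched.
Slc5a3: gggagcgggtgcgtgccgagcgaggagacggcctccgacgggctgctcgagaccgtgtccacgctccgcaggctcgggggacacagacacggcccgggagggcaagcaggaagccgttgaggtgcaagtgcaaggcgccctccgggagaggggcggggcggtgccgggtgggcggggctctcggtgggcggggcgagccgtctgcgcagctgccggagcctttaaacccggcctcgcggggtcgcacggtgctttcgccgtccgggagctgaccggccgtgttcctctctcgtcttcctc
Hspa1b: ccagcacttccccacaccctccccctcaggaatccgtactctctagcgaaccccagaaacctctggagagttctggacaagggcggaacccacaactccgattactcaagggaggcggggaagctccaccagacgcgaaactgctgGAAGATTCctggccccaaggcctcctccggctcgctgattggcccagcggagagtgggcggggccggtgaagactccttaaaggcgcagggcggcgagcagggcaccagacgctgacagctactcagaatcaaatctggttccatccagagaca
Nfat5: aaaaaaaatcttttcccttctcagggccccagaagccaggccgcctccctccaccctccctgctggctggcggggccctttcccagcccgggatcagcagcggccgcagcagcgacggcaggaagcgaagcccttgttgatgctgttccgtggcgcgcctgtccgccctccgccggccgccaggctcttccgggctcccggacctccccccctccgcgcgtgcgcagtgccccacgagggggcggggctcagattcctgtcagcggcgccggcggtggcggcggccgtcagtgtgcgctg

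Every motif was searched on both strands as an exact match. The TonE match TGGAAAACTCC stands at chr6:121342499-121342509, where its first base is 75 bases before the upstream start of Slc6a12. The kappa-B match at chr6:121342441-121342450 begins 133 bases before that start, and the AP-1 match at chr6:121342516-121342522 begins 58 bases before it. None of these 3 matches overlaps another, and none lies in a region called in any library. Over all 32851 windows of the same length in the table, 4.96% held a TonE match, 4.51% a kappa-B match and 7.81% an AP-1 match. A heat shock element was found in the Hspa1b window, 104 bases before the start and inside the called promoter region, and in 2 of the 6 windows of Sgk1, both outside called regions, against 7.86% of all windows. The ATF4-type element TGATGNAA was in none of the 16 windows and in 3.97% of all windows. Base composition differed between the windows, with 73.3% G and C in the Slc5a3 window, 72.0% in that of Nfat5 and 55.7% in the upstream Slc6a12 window, against a median of 52.7% over all windows.

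The betaine and myo-inositol transporter genes, Slc6a12 and Slc5a3, had the least peak cover in KO relative to WT among the 9 genes, and in both every KO library lay below every WT library. Neither difference passed the test across all genes. Cover is the number of bases of a gene's regions that lay under peaks of a library, so that lost calls and narrower peaks both lower it. It was compared with limma on log2(covered bases + 100) over 15321 genes with a mean cover of at least 200 bases, with Benjamini-Hochberg adjustment over all of them. The design text calls the 2 libraries of a group biological replicates but does not say that they came from separate animals, so p-values measure the spread between these libraries.

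**Figure D1:**
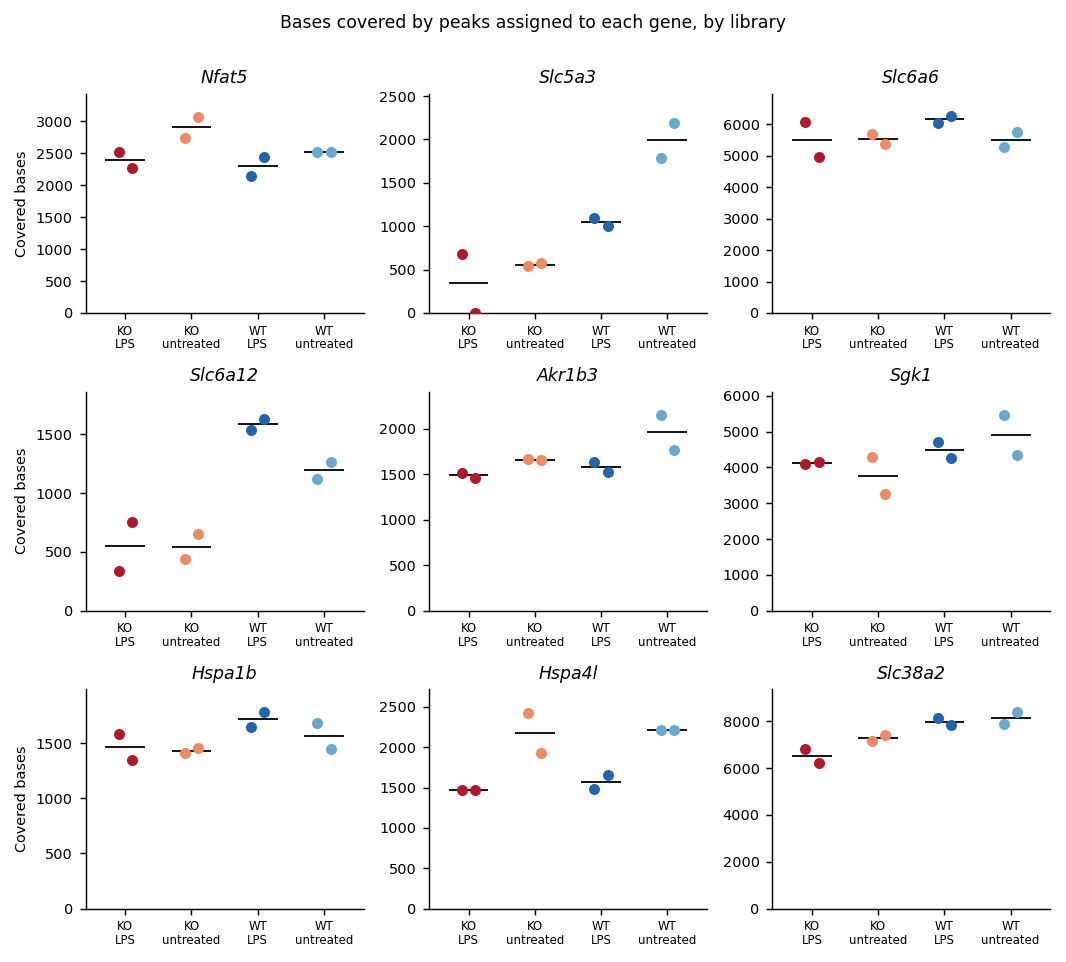
Bases covered by peaks of the regions of each of the 9 genes (vertical axis, bases, from 0) in each library (1 point each) of the 4 groups, with the group mean as a bar. The 4 KO libraries lie below the 4 WT libraries for Slc5a3, Slc6a12 and Slc38a2, and the 4 LPS libraries lie below the 4 untreated libraries for Akr1b3 and Hspa4l.

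Slc6a12 encodes the transporter that brings in betaine with sodium and chloride, and is a textbook NFAT5 target in kidney cells. Its 5 regions were covered over 335 and 758 bases in KO with LPS, 438 and 653 bases in untreated KO, 1540 and 1630 bases in WT with LPS, and 1122 and 1268 bases in untreated WT. The KO and WT libraries did not overlap, and in WT both LPS libraries lay above both untreated ones. Cover averaged 546 ± 194 bases in KO and 1390 ± 236 bases in WT (SD, n = 4 each). The KO against WT difference was -1.24 on the log2 scale (SE 0.23, limma adjusted p = 0.11), a value below which 0.875% of all genes lay. The LPS against untreated difference was 0.16 (SE 0.23, adjusted p = 0.674). In a bulk culture, a lower share of cells with open chromatin and less open chromatin per cell cannot be told apart.

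Of the 5 regions of Slc6a12, 3 were called in WT libraries alone, as 15% of all regions were, and 1 of these 3 (chr6:121352361-121352520, inside the gene) in a single library, WT LPS library 1, over 160 bases. The region at chr6:121343196-121343435, inside the gene and over 2 of its 5 annotated starts, was covered over 232 and 225 bases in WT with LPS and 210 and 239 bases in untreated WT, and was not called in any KO library. Among all regions, 0.231% were called in all 4 WT libraries and no KO library. These peaks of 210 to 239 bases were narrow: median peak widths of the WT lists were 402 to 437 bases and their narrowest peaks 156 to 174 bases. A region 13.2 kb into the gene, counted from the nearest start to its middle (chr6:121356309-121356833), had 292 and 525 bases in WT with LPS and 0 and 182 bases in untreated WT, and was not called in KO. The region 0.402 kb before the gene body (chr6:121341624-121342172) was called in all 8 libraries. There the peaks were 335 and 506 bases wide in KO with LPS, 438 and 350 bases in untreated KO, 523 and 549 bases in WT with LPS, and 478 and 508 bases in untreated WT, so the widths overlapped (KO against WT log2 difference -0.36, SE 0.16, adjusted p = 0.517). The region 0.6 kb beyond the gene (chr6:121366373-121366812) was called in 1 of 2 libraries of each KO group, with 252 bases with LPS and 303 bases untreated, and in all 4 WT libraries, with 331 to 434 bases.

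The neighbouring gene Slc6a13, which encodes a GABA and taurine transporter, had a single region 0.459 kb from its body (chr6:121338180-121338789). It was singled out after its values were seen. Its peaks were 255 and 269 bases wide in KO with LPS and 275 and 252 bases in untreated KO, against 577 and 572 bases in WT with LPS and 544 and 510 bases in untreated WT. KO and WT widths did not overlap, and the KO against WT difference in cover was -0.84 (SE 0.15, adjusted p = 0.106).

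**Figure D2:**
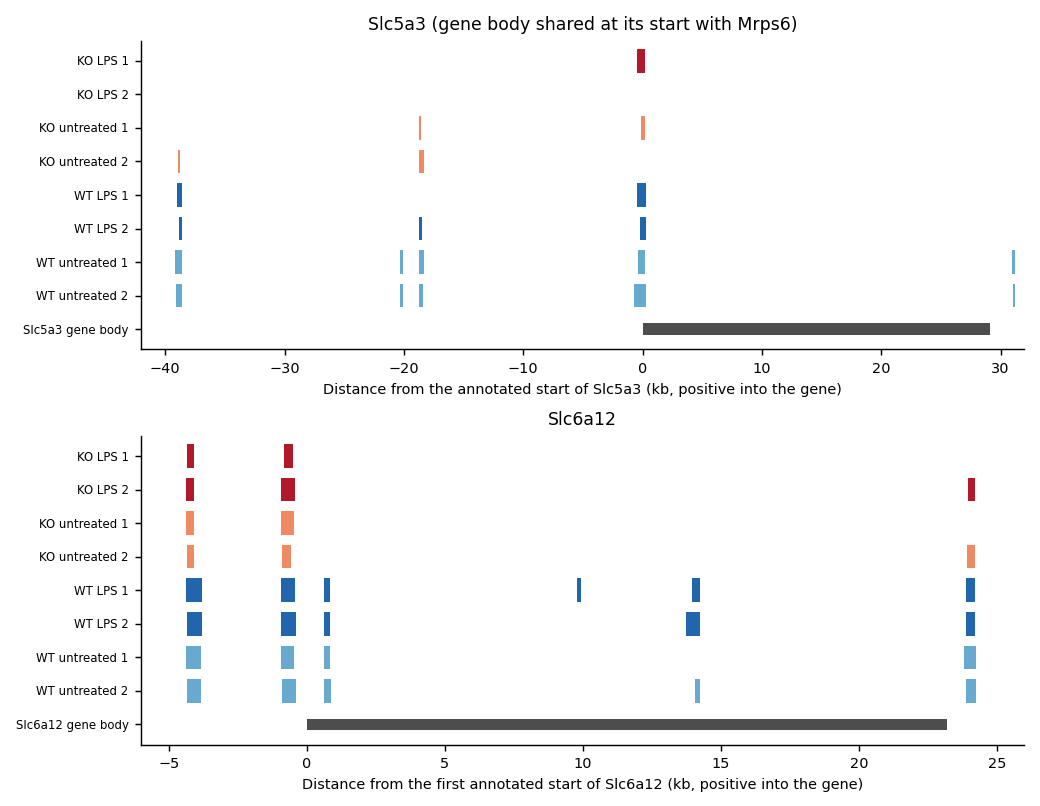
Peaks of each library (bars, drawn to scale in kb) around Slc5a3 and Slc6a12, with distance from the annotated start on the horizontal axis, libraries down the page and the gene body in grey. The peaks beyond 30 kb at Slc5a3 belong to Mrps6 and those near -4 kb at Slc6a12 to Slc6a13, and no KO library has a peak just inside Slc6a12, where all 4 WT libraries have one of 210 to 239 bases.

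Slc5a3 encodes the sodium-coupled importer of myo-inositol, another osmolyte under NFAT5 control. Its 4 regions were covered over 681 and 0 bases in KO with LPS, 536 and 572 bases in untreated KO, 1095 and 999 bases in WT with LPS, and 1791 and 2188 bases in untreated WT. Untreated WT stood highest, WT with LPS next, and the KO groups, which overlapped each other, lowest. Cover averaged 447 ± 304 bases in KO and 1518 ± 569 bases in WT (SD, n = 4 each). The KO against WT difference was -1.85 (SE 0.58, limma adjusted p = 0.234), with 0.124% of all genes lower, and the LPS against untreated difference was -1.04 (SE 0.58, adjusted p = 0.283). Without KO LPS library 1 these differences were -2.59 and -1.78, but the library with 0 bases then stood alone for KO with LPS.

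No region of Slc5a3 was called in all 8 libraries. The region over its start (chr16:92057605-92058628), where the gene Mrps6 for a mitochondrial ribosomal protein also begins, had 681 and 0 bases in KO with LPS, 354 and 0 bases in untreated KO, 681 and 501 bases in WT with LPS, and 601 and 1024 bases in untreated WT. It was thus missing from 1 library of each KO group. The gene bodies of Slc5a3 and Mrps6 begin at chr16:92058322 and chr16:92058336, so the regions upstream lie almost as near to Mrps6 as to Slc5a3. Mrps6, which shares the start region, had a KO against WT difference in cover of -1.84 (SE 0.73, limma adjusted p = 0.322). To which of the 2 genes the differences belong was not tested. A region 38.6 kb upstream (chr16:92019153-92019751) was not called in KO with LPS, had 0 and 215 bases in untreated KO, and had 414 and 238 bases in WT with LPS and 564 and 485 bases in untreated WT. Only the untreated WT libraries called the region 20.1 kb upstream (chr16:92037971-92038270), over 232 and 300 bases. The region 18.3 kb upstream (chr16:92039587-92039980) was not called in KO with LPS, and had 182 and 357 bases in untreated KO, 0 and 260 bases in WT with LPS, and 394 and 379 bases in untreated WT. Both untreated WT libraries called all 3 upstream regions, and neither KO LPS library called any of them.

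The taurine transporter gene Slc6a6 and the aldose reductase gene Akr1b3 showed no such gap between genotypes. Slc6a6, whose product brings the osmolyte taurine into the cell, had 16 regions, 10 of them called in all 8 libraries. They were covered over 6062 and 4968 bases in KO with LPS, 5703 and 5369 bases in untreated KO, 6043 and 6273 bases in WT with LPS, and 5271 and 5741 bases in untreated WT. KO and WT overlapped, with a difference of -0.08 (SE 0.08, adjusted p = 0.697). Single regions of Slc6a6 varied with LPS in both directions. At chr6:91705358-91706421, inside the gene, cover was 889 and 479 bases in KO with LPS and 194 and 335 bases in untreated KO, and 800 and 659 bases in WT with LPS and 255 and 331 bases in untreated WT. Every LPS library lay above every untreated library there, and the LPS against untreated difference was 1.34 (SE 0.27), the highest of the 39 regions of the 9 genes called in all 8 libraries, with a limma adjusted p of 0.0664 over 36009 regions. This region joined separate stretches. Untreated peaks lay 22.009 to 22.35 kb from the lower-coordinate end of the gene. Both WT LPS libraries had a peak there and another within 21.31 to 21.828 kb. KO LPS library 2 had only a peak at 21.338 to 21.816 kb, and the peak of KO LPS library 1 spanned 21.457 to 22.345 kb. The difference thus mixes calls at different places with peak width. Another 3 regions inside the gene had narrower peaks in every LPS library than in any untreated one, as had 10.8% of the 36009 regions, and none of the 3 passed. The one at chr6:91693390-91693948 had 350 and 367 bases in KO with LPS, 501 and 416 bases in untreated KO, 379 and 382 bases in WT with LPS, and 533 and 488 bases in untreated WT (LPS against untreated -0.39, SE 0.11, adjusted p = 0.124). The differences were smaller at the other 2, chr6:91712556-91713415 (-0.15, SE 0.06, adjusted p = 0.224) and chr6:91716116-91716708 (-0.17, SE 0.08, adjusted p = 0.283). The region across the end of the gene with the lower coordinate (chr6:91682948-91684208) was called in all 8 libraries, over 694 to 947 bases in KO and 855 to 1073 bases in WT, which overlapped (KO against WT -0.23, SE 0.10, adjusted p = 0.479). In WT with LPS a further region inside the gene (chr6:91726755-91727025) was called over 227 and 229 bases, and no other group called it.

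Akr1b3, whose enzyme reduces glucose to the osmolyte sorbitol, had 6 regions, with 1510 and 1463 covered bases in KO with LPS, 1670 and 1654 in untreated KO, 1640 and 1520 in WT with LPS, and 2155 and 1765 in untreated WT. KO and WT overlapped (difference -0.15, SE 0.09, adjusted p = 0.485), and every LPS library lay below every untreated one (-0.22, SE 0.09, adjusted p = 0.154). The region across 1 end of the gene (chr6:34316874-34317842) was called in all 8 libraries, with widths of 539 bases in KO LPS library 2 and 882 to 943 bases in the other libraries. A region 25.9 kb away (chr6:34277759-34278007) was called in no KO library, in 1 of 2 WT LPS libraries over 182 bases, and in both untreated WT libraries over 209 and 220 bases.

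Nfat5 itself had accessible chromatin over its start in KO cells as in WT cells. The region over that start (chr8:107292751-107293816) was called in all 8 libraries, with peaks 454 and 551 bases wide in KO with LPS, 963 and 897 bases in untreated KO, 486 and 746 bases in WT with LPS, and 1066 and 795 bases in untreated WT. Peaks were narrower in every LPS library than in any untreated one, and KO and WT overlapped. The LPS against untreated difference in width was -0.75 (SE 0.17, adjusted p = 0.0825) and the KO against WT difference -0.13 (SE 0.17, adjusted p = 0.834). The next region upstream, 1.73 kb before the gene body (chr8:107291071-107291709), had the other sign: 569 and 545 bases in KO with LPS, 396 and 520 bases in untreated KO, 585 and 614 bases in WT with LPS, and 251 and 507 bases in untreated WT (difference 0.52, SE 0.23, adjusted p = 0.256). A region 15.4 kb upstream (chr8:107277447-107277996) was narrower in every LPS library, with 436 and 276 bases in KO with LPS, 474 and 500 bases in untreated KO, 352 and 357 bases in WT with LPS, and 500 and 514 bases in untreated WT (-0.50, SE 0.16, adjusted p = 0.152). In these 3 regions of Nfat5 the LPS and untreated libraries did not overlap, 2 being lower and 1 higher with LPS, and none passed the test. Among all regions called in all 8 libraries, 10.8% were lower and 2.6% higher in this way.

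Of the remaining Nfat5 regions, the one 23.4 kb upstream (chr8:107269256-107270045) varied little, between 698 and 754 bases in KO and between 706 and 733 bases in WT. A region inside the gene (chr8:107329619-107329854) was called only in KO, over 0 and 203 bases with LPS and 192 and 236 bases untreated. Over all 7 regions the gene had 2528 and 2273 covered bases in KO with LPS, 2746 and 3075 in untreated KO, 2140 and 2450 in WT with LPS, and 2523 and 2523 in untreated WT. KO and WT overlapped (difference 0.13, SE 0.08, adjusted p = 0.523), and the LPS against untreated difference was -0.20 (SE 0.08, adjusted p = 0.161). Since the deleted part of the gene is not given, these peaks check nothing about the deletion. Among 6326 genes with cover in all 8 libraries and a mean within 2-fold of that of Nfat5, the 5 whose centred log2 cover over the 8 libraries was most like it were Foxo3, Zfp141, Sod1, Ndufaf4 and Eif2b3. Their root mean square differences from Nfat5 were 0.038, 0.047, 0.058, 0.065 and 0.067, against a median of 0.221 over all genes compared.

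Sgk1, a kinase that raises sodium transport and is induced by osmotic change and glucocorticoids, had 14 regions across and around a long annotated gene body. Cover was 4092 and 4160 bases in KO with LPS, 4290 and 3243 bases in untreated KO, 4705 and 4261 bases in WT with LPS, and 5448 and 4349 bases in untreated WT. The genotypes overlapped (difference -0.25, SE 0.11, adjusted p = 0.387), as did LPS and untreated libraries (0.01, SE 0.11, adjusted p = 0.959). The region over the most downstream start (chr10:21994117-21994864) was called in all 8 libraries, over 462 and 563 bases in KO with LPS, 627 and 481 bases in untreated KO, 721 and 701 bases in WT with LPS, and 559 and 614 bases in untreated WT. Another region inside the gene (chr10:21946654-21947364) hardly varied, between 682 and 694 bases in KO and between 691 and 701 bases in WT. Calls differed at narrower regions. A region 34.8 kb upstream (chr10:21847132-21847374) was called in WT alone, over 234 and 205 bases with LPS and 191 and 0 bases untreated, and a region inside the gene (chr10:21907030-21907313) in untreated WT alone, over 278 and 191 bases. One 72.3 kb upstream (chr10:21809512-21809877) had 280 and 237 bases in KO with LPS, 209 and 0 bases in untreated KO, 357 and 186 bases in WT with LPS, and no call in untreated WT.

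Of the chaperone genes Hspa4l and Hspa1b, only Hspa4l differed with LPS by the test, and that call did not hold under every setting. Hspa4l, an HSP110-family chaperone and exchange factor for HSP70 that is induced by hypertonic stress, was the only one of the 9 genes whose cover passed the test, and it fell with LPS. It had 1470 and 1465 covered bases in KO with LPS and 2422 and 1925 bases in untreated KO, and 1479 and 1652 bases in WT with LPS and 2218 and 2209 bases in untreated WT. Every LPS library lay below every untreated library, with means of 1517 ± 90.5 bases with LPS and 2194 ± 204 bases untreated (SD, n = 4 each). The difference was -0.50 (SE 0.09, limma adjusted p = 0.0307), a fold of 0.706 on the log2(covered bases + 100) scale. Over all genes the median difference was -0.155, and 1120 genes (7.31%) were lower and 161 (1.05%) higher with LPS. With every library centred on its own median, 134 genes were lower and 198 higher, and the Hspa4l difference was -0.34 (adjusted p = 0.113). The call was also lost when any 1 of the 8 libraries was left out, with adjusted p between 0.0578 and 0.0949, and with the number in the sample titles as a block (adjusted p = 0.0612), a fit in which no gene passed. KO and WT overlapped (difference -0.06, SE 0.09, adjusted p = 0.816).

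Hspa4l had 2 regions. The one over its start (chr3:40744434-40746545) was called in all libraries, with 1470 and 1465 bases in KO with LPS, 2069 and 1548 bases in untreated KO, 1111 and 1344 bases in WT with LPS, and 1749 and 1732 bases in untreated WT (LPS against untreated -0.40, SE 0.11, adjusted p = 0.111). In 4 libraries the start region held 2 or more peaks, so a lower value there can be a split peak. The second region, inside the gene (chr3:40794037-40794553), was not called in either KO library with LPS and had 353 and 377 bases in untreated KO, 368 and 308 bases in WT with LPS, and 469 and 477 bases in untreated WT. In WT both LPS libraries lay below both untreated ones. The missing calls entered the cover of the gene as 0 bases. The region was outside the main width fit, which took regions called in all 8 lists. In the width fit of regions called in at least 6 lists, it passed as lower with LPS, with the missing calls in KO with LPS entered as 0 bases. The difference was -1.3 (SE 0.14, limma adjusted p = 0.0198). Its KO against WT difference was -1.21 (SE 0.14, adjusted p = 0.0511), which did not pass. The LPS effect in KO minus that in WT was -1.83 (SE 0.28, adjusted p = 0.148), which did not pass either. A missing call has no width, so these sizes depend on the value given to it.

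Hspa1b encodes an inducible HSP70 chaperone and has a near-identical neighbour, Hspa1a, so reads of their shared sequence could have been placed at either gene. The region over its start (chr17:34959041-34960110), which holds the heat shock element printed above, had 839 and 691 bases in KO with LPS, 867 and 867 bases in untreated KO, 898 and 1059 bases in WT with LPS, and 976 and 820 bases in untreated WT. Neither genotype nor treatment separated these widths. A region 5.23 kb beyond the far end of the gene (chr17:34950865-34951196) was called over 167 and 313 bases in KO with LPS and 205 and 158 bases in WT with LPS, and in no untreated library. Such a pattern, present in the 4 LPS libraries and absent from the 4 untreated ones, was found at 1.1% of all regions. The reverse pattern was found at none of the regions of the 9 genes and at 0.928% of all regions. Cover of the gene as a whole was 1347 to 1784 bases with LPS and 1407 to 1680 bases untreated (difference 0.08, SE 0.09, adjusted p = 0.603).

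**Figure D3:**
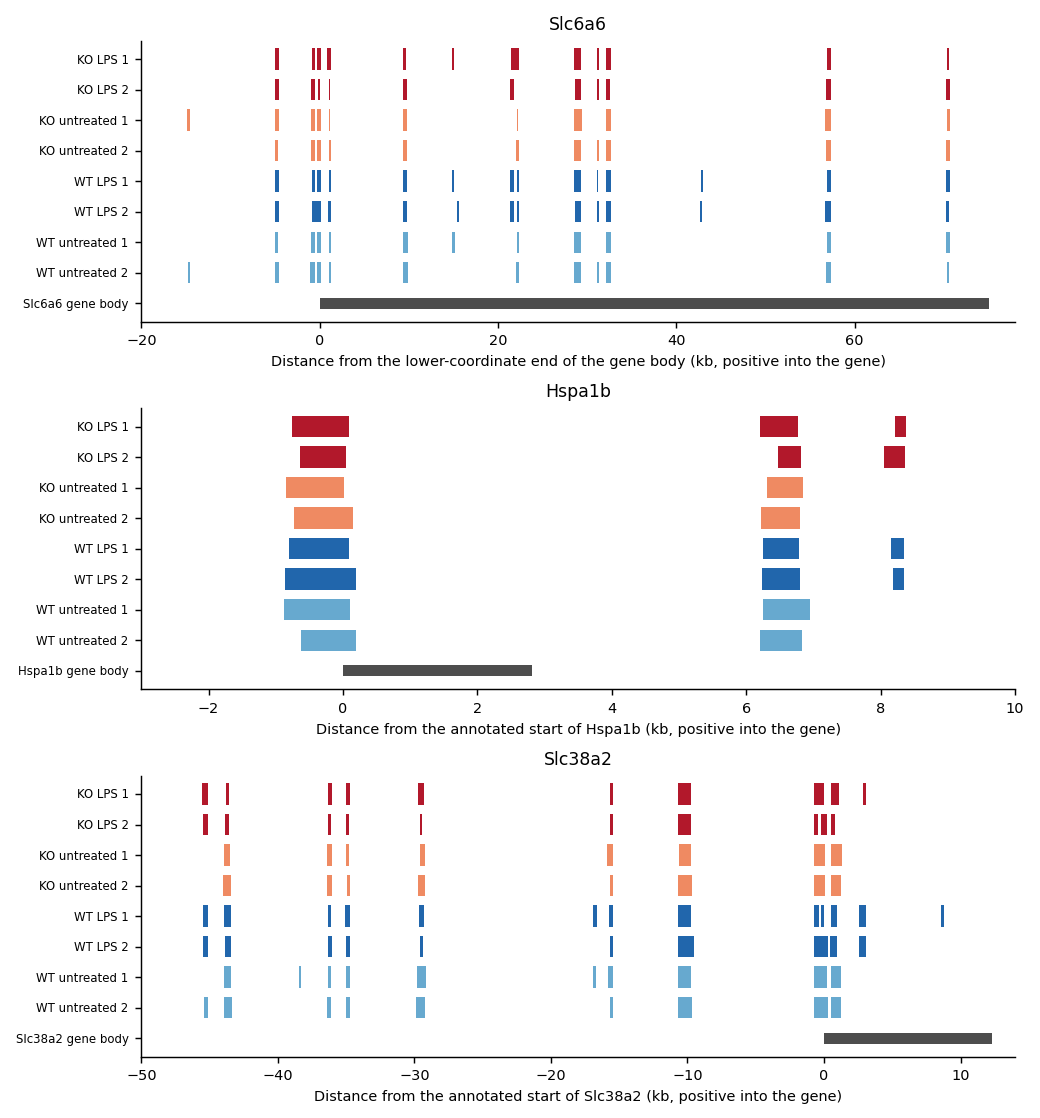
Peaks of each library (bars, drawn to scale in kb) around Slc6a6, Hspa1b and Slc38a2, with libraries down the page and the gene body in grey. Distance on the horizontal axis runs from the annotated start, or for Slc6a6 from the end of the gene body with the lower coordinate. The region about 8 kb past the Hspa1b start has peaks of 158 to 313 bases in the 4 LPS libraries and none in untreated ones.

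Slc38a2 encodes SNAT2, a transporter of neutral amino acids that is induced by hypertonic stress and amino acid shortage. It had the most regions, 19, of which 13 were called in all 8 libraries. Cover was 6831 and 6204 bases in KO with LPS, 7163 and 7399 bases in untreated KO, 8138 and 7830 bases in WT with LPS, and 7875 and 8402 bases in untreated WT. All 4 KO libraries lay below all 4 WT libraries, with means of 6899 ± 519 bases in KO and 8061 ± 265 bases in WT (SD, n = 4 each). The difference was -0.22 (SE 0.05, adjusted p = 0.162), with 21.6% of all genes lower.

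Calls and widths at single regions of Slc38a2 varied with LPS in both directions, and none of the widths passed the test. The region 45.1 kb upstream (chr15:96744821-96745258) had 416 and 415 bases in KO with LPS and no call in untreated KO, and 394 and 414 bases in WT with LPS and 0 and 309 bases in untreated WT. A region inside the gene (chr15:96696620-96697178) had 252 and 0 bases in KO with LPS and 559 and 520 bases in WT with LPS, and was called in no untreated library. The neighbouring region inside the gene (chr15:96698437-96699299) had narrower peaks in every LPS library than in any untreated one, over 575 and 320 bases in KO with LPS, 811 and 770 bases in untreated KO, 485 and 561 bases in WT with LPS, and 775 and 750 bases in untreated WT. Its LPS against untreated difference was -0.71 (SE 0.19, adjusted p = 0.107) with all libraries. It was -0.93 without KO LPS library 1, when the library with 320 bases stood alone for KO with LPS. The region 43.4 kb upstream (chr15:96743082-96743717) had 217 and 296 bases in KO with LPS, 454 and 561 bases in untreated KO, 499 and 425 bases in WT with LPS, and 540 and 601 bases in untreated WT. Its KO against WT difference was -0.52 (SE 0.15, adjusted p = 0.337) and its LPS against untreated difference -0.65 (SE 0.15, adjusted p = 0.0866). The region over the Slc38a2 start (chr15:96699459-96700483) had 721 to 820 bases in KO and 553 to 1016 bases in WT, and these overlapped.

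**Figure D4:**
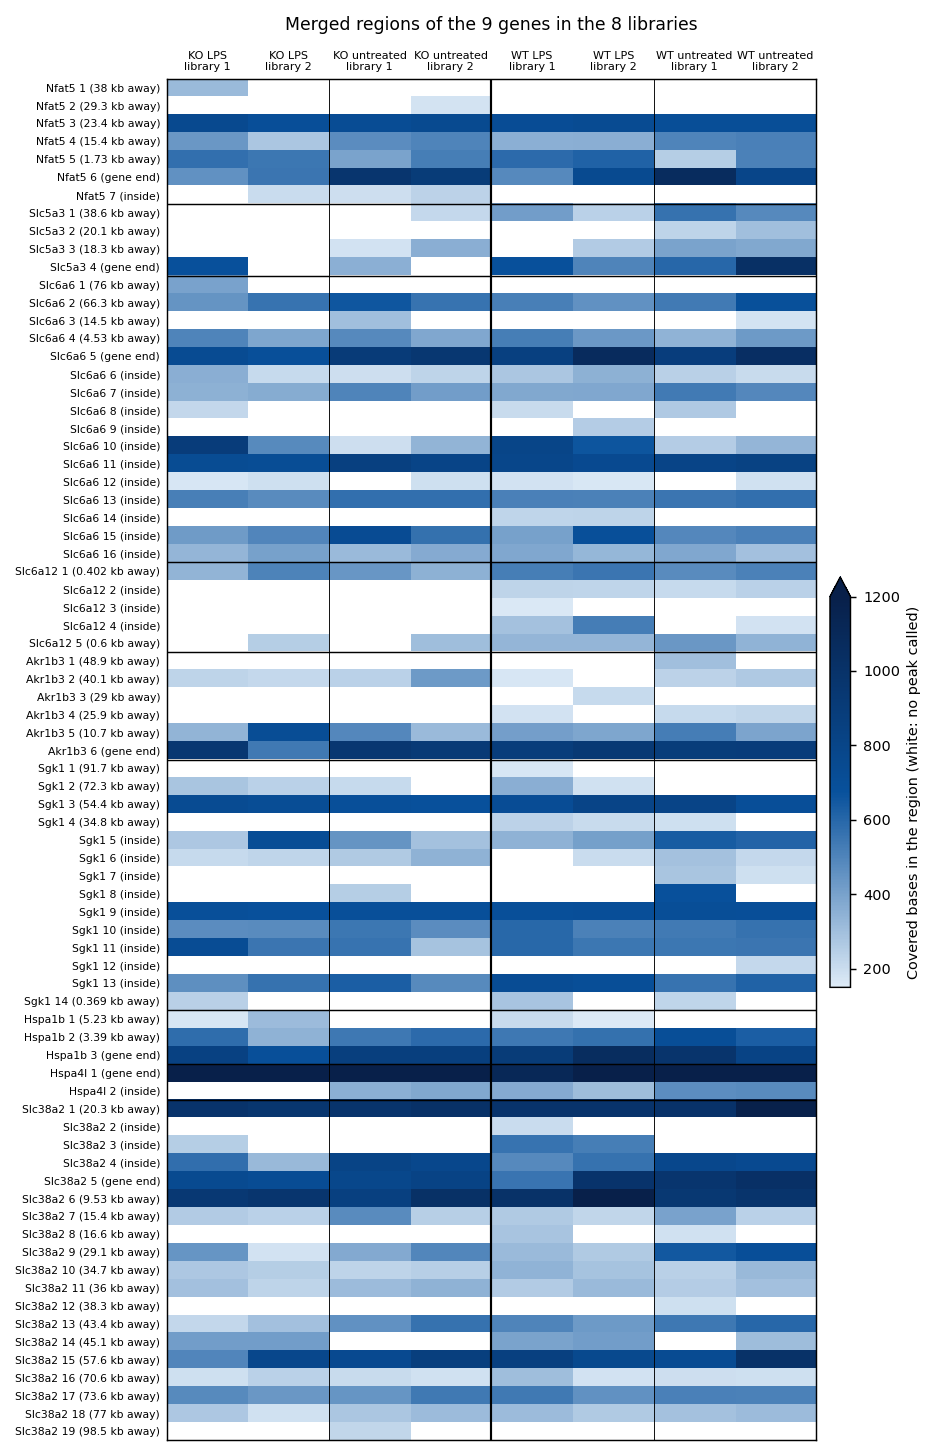
All 76 regions of the 9 genes (rows, by gene and by position) in the 8 libraries (columns), with KO to the left of WT. Colour gives the covered bases and white marks no call, and 39 rows are coloured in all 8 columns.

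Across the 76 regions, 39 (51.3%) were called in all 8 libraries, against 41.3% of all regions, and 12 (15.8%) in a single library, against 20.1%. Those called once were 3 regions of Slc38a2, 2 each of Nfat5, Slc6a6, Akr1b3 and Sgk1, and 1 of Slc6a12. The median width of the 76 regions was 503 bases, against 468 bases over all regions. In all, 5 regions were called in at least 1 KO library and no WT library (11.4% of all regions were) and 16 in at least 1 WT library and no KO library (15%). With LPS, no region of the 9 genes was called in both KO libraries and neither WT library (2.03% of all regions were), and 6 were called in both WT libraries and neither KO library (3.17% of all regions). These 6 were at Slc5a3, Slc6a6, Slc6a12, with 2, Sgk1 and Hspa4l. Untreated, 1 region was called in KO alone, at Nfat5 (1.6% of all regions), and 4 in WT alone, at Slc5a3, Slc6a12, Akr1b3 and Sgk1 (2.23%). Within a genotype, gained regions had a call in the 2 stimulated libraries and none in the 2 unstimulated ones, and lost regions the reverse. In KO, 2 regions were gained with LPS (2.56%) and 2 lost (4.07%), and in WT 4 were gained (3.96%) and 2 lost (5.06%). The counts depended on the narrow peaks. When each list was reduced to its widest peaks, 50% as many as the shortest list holds, 1 region was called in KO alone and 1 in WT alone with LPS, 0 were called in KO alone untreated, 0 were lost with LPS in KO, and 2 were gained and 5 lost with LPS in WT. These counts of 2 libraries against 2 have no p-value, since none under 0.05 is possible.

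All 4 KO libraries had less cover than all 4 WT libraries at 3 of the 9 genes (Slc5a3, Slc6a12 and Slc38a2), as at 4.46% of all genes, and more at none, as at 0.946%. The median KO against WT difference of the 9 genes was -0.17, beside -0.07 over all genes, and 8 of 9 lay below 0, as 65.9% of all genes did. With every library centred on its own median, 7 of 9 lay below 0, with a median of -0.10. None of the 9 passed the test in this comparison, in which 6 of all genes were lower (0.0392%) and 10 higher (0.0653%).

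All 4 LPS libraries had less cover than all 4 untreated libraries at 2 of the 9 genes, Akr1b3 and Hspa4l, as at 15.2% of all genes, and more at none, as at 1.79%. The median LPS against untreated difference of the 9 genes was -0.09, beside -0.15 over all genes, and 5 of 9 lay below 0, as 78.1% of all genes did. With centred libraries the median of the 9 was 0.07 and 4 of 9 lay below 0. Peak widths of the 39 regions called in all 8 libraries were lower in every LPS library than in any untreated one at 7 regions (3 of Slc6a6, 2 of Nfat5, 1 of Hspa4l and 1 of Slc38a2), as at 10.8% of all such regions, and higher at 2 (1 of Slc6a6 and 1 of Nfat5), as at 2.6%. None of the 39 passed the width test for LPS, in which 451 of all regions were narrower (1.25%) and 160 wider (0.444%), or 168 narrower and 239 wider with centred libraries. Widths of KO and WT were apart at none of the 39, while KO peaks were narrower at 2.97% and wider at 1.08% of all such regions. None of the 39 passed the width test for KO against WT, in which 1 of all regions was narrower (0.00278%) and 1 wider (0.00278%). For the difference between the LPS effects in KO and in WT, limma called 0 of 15321 genes and 0 of 36009 regions, with 960 genes and 2331 regions at an unadjusted p under 0.05.

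**Figure D5:**
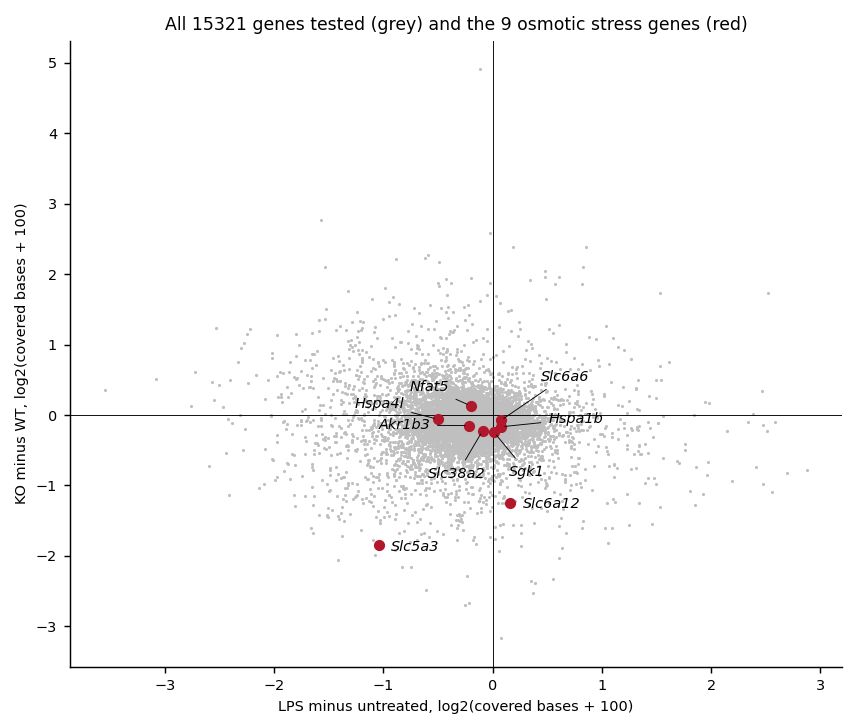
Difference in log2(covered bases + 100) between LPS and untreated libraries (horizontal axis) and between KO and WT libraries (vertical axis) for 15321 genes (grey) and the 9 named genes (red). Slc5a3 at -1.85 and Slc6a12 at -1.24 on the vertical axis stand below the other 7, which lie between -0.25 and 0.13.

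Other genes of the pathway were read from lists of related genes, and their counts stand beside 7.31% of all genes lower and 1.05% higher with LPS. Among 11 regulators of NFAT5, the kinase genes Map2k3 (-0.35, adjusted p = 0.0415) and Fyn (-0.32, adjusted p = 0.0275) passed the test as lower with LPS and none as higher. Among 17 genes of cell volume and water transport, 15 of them tested, the glycerol and water channel gene Aqp3 (-0.86, adjusted p = 0.0177) and the chloride transporter gene Clcn3 (-0.33, adjusted p = 0.0382) passed as lower with LPS and the channel gene Aqp9 as higher (0.45, adjusted p = 0.0361). The constitutive chaperone gene Hspa8 was the only one of 8 chaperone genes tested to pass (-0.35, adjusted p = 0.036), while 7 of the 8 lay below 0, and of the 6 genes next to members Wwp2, beside Nfat5, passed as lower (-0.50, adjusted p = 0.0275). None of 10 further osmolyte genes tested and none of the 4 other NFAT genes passed, with smallest adjusted p of 0.0509 and 0.0504. In KO against WT no gene of these lists passed. With centred libraries the calls of Map2k3, Fyn, Clcn3, Hspa8 and Wwp2 were lost (adjusted p between 0.0819 and 0.232), and those of Aqp3 (-0.70, adjusted p = 0.0381) and Aqp9 (0.61, adjusted p = 0.0277) were kept. With the title number as a block no gene of the lists passed, the smallest adjusted p over all genes being 0.0501.

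The single region of Aqp3 (chr4:41073024-41073956) lay 18.8 kb from the gene body. It had peaks of 228 and 243 bases in KO with LPS and 796 and 822 bases in untreated KO, and 627 and 741 bases in WT with LPS and 809 and 894 bases in untreated WT. The KO LPS libraries thus stood apart from the other 6. The LPS effect in KO minus that in WT was -1.16 (SE 0.22), which did not pass over all genes (adjusted p = 0.662).

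Macrophage markers also differed with LPS, as values to set beside the LPS differences above. Mertk, a receptor for dying cells, was lower (-0.81, adjusted p = 0.0294), as were the integrin gene Itgam (-0.47, adjusted p = 0.0294) and the Fc receptor gene Fcgr1 (-0.43, adjusted p = 0.0287), and Adgre1, which encodes F4/80, was higher (0.64, adjusted p = 0.0344), against the 7.31% and 1.05% of all genes given above. None of the 7 markers passed in KO against WT. With centred libraries Adgre1 still passed (0.80, adjusted p = 0.0277) and the other 3 did not (adjusted p between 0.0714 and 0.108).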

How the data were processed

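ATAC-seq peak lists of 8 libraries (4 groups of 2) were analysed. The deposited files give peak positions (chromosome, start and end, 1 list per library) made by the authors, with no score, height or count. The build was GRCm38 (mm10), and MACS2 2.1.1, Bowtie2 2.3.0, bcl2fastq 2.17.1.14 and Picard are named, per the submitters' processing notes. Threshold, duplicate handling, blacklist and cut-site shift are not given there, and each can decide whether a weak peak is listed and how wide it is.

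From these positions, peaks were merged (overlap of at least 1 base) and given to whichever of 21887 protein-coding gene bodies was nearest within 100 kb, and the bases under each library's peaks were counted. A region nearest to several gene bodies was kept for each. Starts are counted from 1. Log2 peak widths (36009 regions called in all 8 lists) and log2(covered bases + 100) per gene (15321 genes with a mean of at least 200) were fitted with limma 3.58.1 (R 4.3.3) with trend, as 4 group means and 3 contrasts, with Benjamini-Hochberg adjustment at 0.05, after a check on simulated data. Calls of 2 against 2 libraries were counted without a test. Motifs were searched in RefSeq promoter windows of 300 bases. Members and lists were chosen with earlier results of these data known. Beyond the 9 members, list genes were named where they passed a fit or had a region in a call class, at most 4 per list, and Slc6a13 was added after its values were seen. Alternatives covered scaling, pseudocounts of 10 and 500, filters, distance (25 kb), list length, a replicate term, each library left out and, added after seeing the data, a block by the number in the sample titles.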

Additional observations from a re-analysis of the deposited data

How the results depend on the processing

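Every peak is weighed by position alone, so depth and calling settings limit each value here. Shortening each list to its widest peaks, equal to the shortest list or 50% of it, stood in for a stricter threshold. With the stricter lists the 9 genes had 40 regions, 15 of them called in all 8 libraries. Untreated, 0 of these were called in KO alone and 895 of all regions in WT alone. With LPS, 1 was called in KO alone and 1 in WT alone, beside 1244 of all regions in WT alone. In KO, 0 were lost with LPS, beside 1384 of all regions. In WT, 2 were gained and 5 lost, beside 1947 gained and 1683 lost of all regions. With lists of equal length, 1 region of the 9 genes was WT-only untreated, 1 KO-only with LPS, and 1 gained and 1 lost with LPS in KO, and 591 genes had lower cover with LPS. Within 25 kb, 1 region was gained in KO. With peaks required to cover at least 50% of a region, 4 were lost in WT.

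Centring the libraries gave 168 narrower regions and 134 lower genes with LPS. Regions called in at least 6 lists included 45 of the 9 genes, of which 1, inside Hspa4l and without a call in KO with LPS, passed as lower with LPS. Over all regions that fit gave 60 wider and 55 narrower in KO, 320 wider and 976 narrower with LPS, and 2 and 1 for the difference of LPS effects. A fit without trend gave 2 narrower regions in KO and 1 for that difference. A pseudocount of 10 gave 3 lower genes in KO, and no filter 16.

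Within a genotype, LPS and untreated libraries with the same replicate number also share the number in their titles, which is not stated to mark an animal. Deviations of such pairs correlated at 0.054 in KO and 0.054 in WT for widths and at 0.166 in KO and 0.129 in WT for cover, the highest of each set. Pairs across genotypes, which share the replicate number alone, ranged from -0.001 to 0.041 and from 0.075 to 0.105. With the title number as a block, chosen after seeing the data, limma called 0 regions wider and 0 narrower with LPS (7398 at an unadjusted p under 0.05), 0 genes higher and 0 lower (4314), and 0 for the difference of LPS effects. With the replicate number alone as a replicate block, the width fit called 0 regions higher and 0 lower in KO and with LPS, and the cover fit called 4 genes higher and 2 lower in KO, and 121 higher and 914 lower with LPS.

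With 1 library left out, the lone library of its group is assumed to vary like the others. The width fit then called 0 regions in KO, 0 to 42 wider and 0 to 214 narrower with LPS, and the cover fit 3 to 6 genes higher and 0 to 3 lower in KO, and 0 to 74 higher and 0 to 816 lower with LPS. Both called 0 for the difference of LPS effects. Regions of the 9 genes called in 1 genotype alone ranged from 1 to 3 for KO and 5 to 10 for WT untreated (3103 to 5640 and 3646 to 6388 of all), and from 1 to 2 for KO and 7 to 11 for WT with LPS (3066 to 5716 and 4841 to 7292). In KO, 2 to 7 were gained and 2 to 5 lost with LPS (3326 to 6088 and 6178 to 9248), and in WT, 5 to 7 gained and 4 to 5 lost (4886 to 7510 and 6674 to 9910), since 1 library in an arm is easier to satisfy. Of 1905 alternatives for 144 values of the 9 genes, 10 lost a call, each for Hspa4l, 3 gained one, each without KO LPS library 1, and 0 reversed a called value. The cause of the other changes was not tested.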
